A study of Mus musculus with 3 samples.

Results

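The ABC transporter genes were described in macrophages sorted from the heart, kidney and liver of the mouse. ABC stands for ATP-binding cassette. Members were all genes of the deposited expression table whose symbol is Abc followed by a letter from a to g and a number, without the sterol transporters Abca1 and Abcg1, which left 48 of 24453 genes. Levels are given in RPKM, which scales the reads of a gene by its exon length in kilobases and by a library total of 1000000. A level of at least 1 RPKM in at least 1 library was the filter on low values, and 23 of the 48 members and 11482 of all genes passed it. Of the others, 12 had some reads and 13 had 0 reads in every library.

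ABC proteins bind ATP between paired cassettes and use its hydrolysis to move lipids, drugs, conjugates, peptides or metals across membranes, mostly outward or into organelles. Subfamily A holds mainly lipid transporters, subfamilies B and C hold drug and conjugate pumps beside mitochondrial transporters, and subfamily D serves the peroxisome and the lysosome. Members of subfamilies E and F have no membrane domain and work on the ribosome, and subfamily G holds sterol and drug exporters. In macrophages the family is best known for the efflux of cholesterol and of lipid mediators such as leukotrienes.

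The 3 libraries came from cardiac macrophages, renal macrophages and liver Kupffer cells of C57BL/6 mice aged 8 weeks in the steady state, with 1 library for each tissue. Kupffer cells are the resident macrophages of the liver sinusoids. All were sorted as cells with CD11b and F4/80 and without Ly6G and Ly6C, which leaves out neutrophils and inflammatory monocytes, and their RNA was amplified with a kit for low input. The number of mice behind a library is not given in the sources used here. No genotype or treatment differed between the groups.

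There were no replicates, so no difference could be tested against the spread between animals, and each comparison is a description of the libraries. The intervals are exact 95% Poisson intervals of recovered reads for levels and exact 95% Clopper-Pearson intervals for ratios, and they cover counting error only. The depth was 14460630 reads in the heart, 15550833 in the kidney and 16743420 in the liver library. These sums run over all transcripts of the table, so a read in exons that several transcripts share counts more than once; over 1 transcript per gene they were 8751978, 9485368 and 10373696. The 8 macrophage markers, such as Adgre1 and Csf1r, all had at least 1 RPKM in every library.

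Genes of other cells were present too. The 10 hepatocyte markers summed to 1.42, 2.39 and 244 RPKM in the heart, kidney and liver library, with 0, 1 and 8 of them at 1 RPKM or more. The 10 renal tubule markers summed to 0.125, 316 and 0.479 RPKM in the same order, with 0, 5 and 0 of them at 1 RPKM or more. Umod, Slc12a1 and Atp6v1g3 stood at 215, 63.4 and 26.7 RPKM in the kidney and had 0 reads in the heart and liver libraries, and Alb, which encodes albumin, had 0 reads in the heart library. The 10 fibroblast and mural cell markers summed to 138, 5.07 and 16.7 RPKM, with 5, 1 and 3 of them at 1 RPKM or more. Most of the heart sum was Dcn, which encodes decorin, at 125 RPKM, while Pdgfra stood at 1.62 RPKM there and had 0 reads in both other libraries. Endothelial markers summed to 348, 12.5 and 292 RPKM with 4, 2 and 8 of 10 at 1 RPKM or more, and the heart value was almost all Lyve1, which some macrophages also carry. Markers of B and plasma cells summed to 35.9, 168 and 311 RPKM with 2, 1 and 6 of 7 at 1 RPKM or more, and those of T and NK cells to 4.68, 1.55 and 37.9 RPKM with 2, 1 and 3 of 8. Erythroid markers summed to 37.0, 127 and 259 RPKM, cardiomyocyte markers to 13.2, 4.43 and 0.041 RPKM and neutrophil markers to 4.79, 0.303 and 0.065 RPKM. In these sorted pools a change in the number of cells that carry a transcript and a change in RNA per cell cannot be told apart.

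What joins the members is the nucleotide-binding cassette. The coding sequence of each member was searched in frame for codons of the classic ABC signature motif (leucine, serine, glycine, glycine, glutamine) and of the Walker A motif, the loop that holds the phosphates of ATP. The signature stood in 24 of the 48 members and in 51 of 21559 coding genes (0.237%), and Walker A in 46 of the 48 members and 937 coding genes (4.35%). Abcg3 and Abcg8 held no exact Walker A. A member without an exact match may still have a cassette that departs from these letters. The stretches below run from 30 bases before to 30 bases after the first signature, whose 15 bases are in capitals. They are shown for the chromosome 11 neighbours Abca8b, Abca8a and Abca9, for the chromosome 5 neighbours Abcb1a, Abcb1b and Abcb4, whose likeness bears on how reads were assigned, and for the pumps Abcc1 and Abcc3. All are coding strand, from the GENCODE M21 transcripts on GRCm38, the assembly that mm10 names.
Abca8b: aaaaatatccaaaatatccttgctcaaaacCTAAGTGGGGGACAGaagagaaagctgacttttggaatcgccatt
Abca8a: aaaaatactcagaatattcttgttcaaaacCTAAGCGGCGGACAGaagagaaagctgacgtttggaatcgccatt
Abca9: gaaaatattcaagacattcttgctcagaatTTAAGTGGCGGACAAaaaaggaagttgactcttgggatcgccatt
Abcb1a: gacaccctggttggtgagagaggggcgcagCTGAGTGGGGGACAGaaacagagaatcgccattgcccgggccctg
Abcb1b: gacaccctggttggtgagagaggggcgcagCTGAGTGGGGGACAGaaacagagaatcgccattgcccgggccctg
Abcb4: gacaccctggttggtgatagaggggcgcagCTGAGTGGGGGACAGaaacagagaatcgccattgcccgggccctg
Abcc1: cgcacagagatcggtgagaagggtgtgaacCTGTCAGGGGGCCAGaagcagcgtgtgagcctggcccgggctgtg
Abcc3: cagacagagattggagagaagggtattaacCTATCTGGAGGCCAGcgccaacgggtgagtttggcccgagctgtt
The Abcb1a and Abcb1b stretches are identical base for base. They lie inside a run of 338 identical bases, bases 1357 to 1694 of the Abcb1a coding sequence, which is the longest the coding sequences of this pair share. The longest run shared by Abca8a and Abca8b was 97 bases.

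Near-identical copies make some levels uncertain. Of all stretches of 50 bases in the Abcb1b transcript, 19.6% also occurred in a transcript of another gene, mostly Abcb1a, and the share was 18.6% for Abcb1a. For Abca3 the share was 14.3% (921 of 6427 stretches), of which 776 lay in D330041H03Rik, a gene that overlaps it. Abcb6 shared 90.3% with Gm29253, an annotated transcript over the same exons, so its reads cannot be separated from that gene. All other members shared less than 10%, and Abcg3, Abcc1, Abcc3 and Abcb8 shared 0%. The length of the reads is not given in the sources used here, so the 50 bases stand only for a short read.

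The family was led by few genes. The members summed to 346 RPKM in the heart, 377 in the kidney and 481 in the liver library. Abca9 was the highest member in the heart, with 38.3% of that sum, and in the kidney, with 22.7%. Abcg3 was the highest in the liver, with 28.7%. RPKM was at least 1 for 19, 21 and 20 members and at least 10 for 12, 13 and 11 members in the heart, kidney and liver library, and 15 members reached 1 RPKM in all of them. At 0 reads stood 14, 18 and 18 members.

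**Figure D1:**
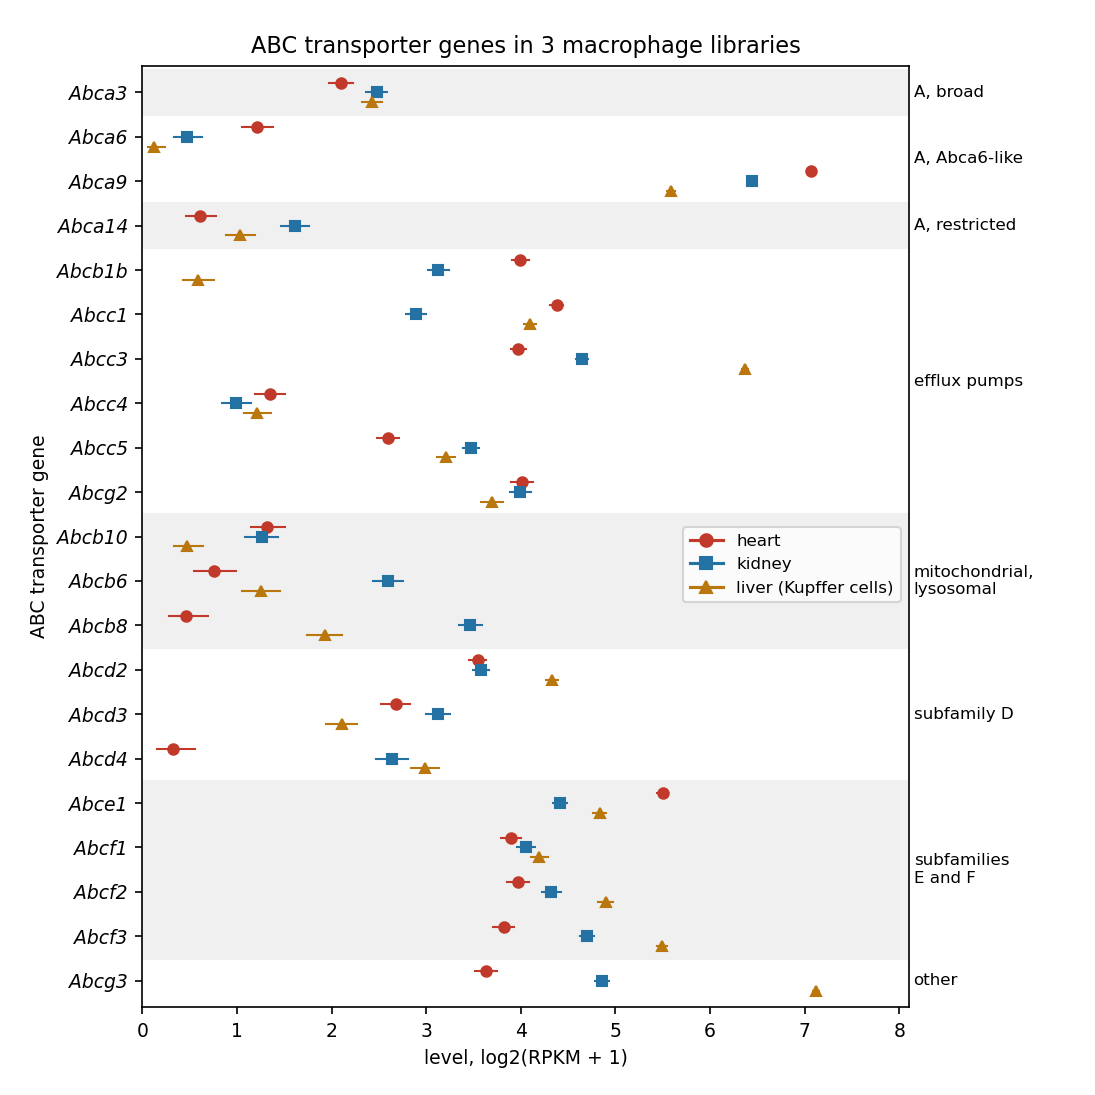
Level of 21 of the 23 ABC transporter genes that passed the filter, as log2(RPKM + 1), in the heart (circles), kidney (squares) and liver (triangles) library, with exact 95% Poisson intervals as lines and genes grouped by role. Abca9 and Abcg3 reach the highest levels, Abca9 in the heart and Abcg3 in the liver library, while Abcg2 and Abcf1 lie close together in all 3.

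Among the members of subfamily A, which leave out Abca1, most of the summed level was Abca9. Human ABCA9 was described as a gene that rises when monocytes become macrophages and that responds to cholesterol. The mouse gene lies on mm10 chromosome 11 from 110100822 to 110168153 on the minus strand. Abca9 reached 133 RPKM in heart macrophages (130.3 to 135), 85.8 in the kidney (83.9 to 87.6) and 47.1 in the liver library (45.8 to 48.4). These levels were above those of 93.9%, 91.2% and 82.7% of the genes with at least 1 RPKM in each library. The heart level was 1.55 times the kidney level (1.50 to 1.59) and 2.82 times the liver level (2.73 to 2.91). The kidney level was 1.82 times the liver level (1.76 to 1.89). The 3 intervals do not overlap, and the order was heart, kidney, liver. Abca9 had 1.92, 1.33 and 0.788 reads per bp of exon in the heart, kidney and liver library. The authors' limit of 3 tags at a position can hold down densely read genes, and its part in these ratios was not tested.

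Abca9 sits in a row of 5 related genes on the same strand, in the order Abca8b, Abca8a, Abca9, Abca6 and Abca5, with no other gene of the table starting between them. Its neighbours were far lower. Abca8a stood at 0.893 RPKM in the heart library (72 reads) and Abca8b at 0.699 (62 reads), and both had 0 reads in the kidney and liver libraries. Against a floor of 3 reads per library, Abca8a was 25.8-fold higher in heart than in kidney and 27.8-fold higher than in liver macrophages. These values leave out the counting error of the heart reads. The same values for Abca8b were 22.2-fold and 23.9-fold. The fibroblast and mural cell markers summed highest in the heart library as well, and their part in these low levels was not tested. Abca6 stood at 1.32 RPKM in the heart (99 reads), 0.384 in the kidney (31 reads) and 0.092 in the liver library (8 reads). Its heart level was 3.43 times the kidney level (2.27 to 5.32) and 14.3 times the liver level (7.0 to 34.1). Abca5, a lysosomal protein, stood at 0.202, 0.469 and 0 RPKM in the heart, kidney and liver library. Abca9 was therefore 101-fold above the highest of its 4 neighbours in the heart, 183-fold in the kidney and 512-fold in the liver library. That neighbour was Abca6 in the heart and liver and Abca5 in the kidney library. The liver value rests on 8 reads of Abca6 (0.0397 to 0.181 RPKM). No intervals were taken for these ratios, so their order is not read as a trend. Abca9 shared 13 stretches of 50 bases with Abca6 and none with the other neighbours.

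**Figure D2:**
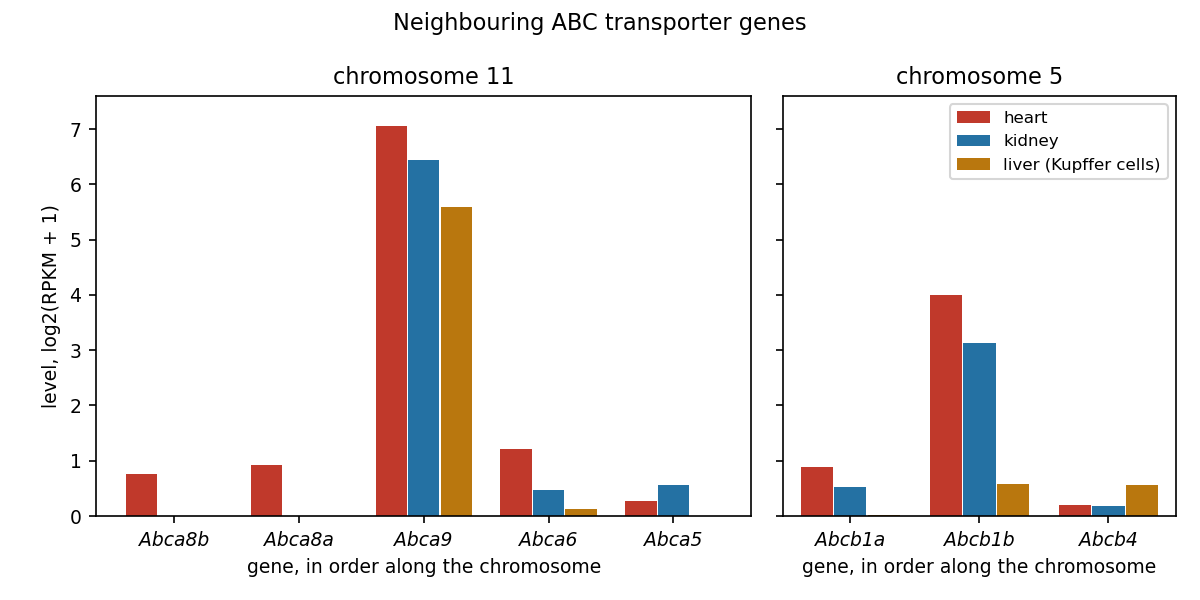
Levels of neighbouring ABC transporter genes as log2(RPKM + 1), with bars from 0 in the order heart, kidney and liver for each gene, and genes in their order along chromosome 11 (left) and chromosome 5 (right). Abca9 and Abcb1b stand far above their neighbours except Abcb1b in the liver library, at 0.498 RPKM.

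The remaining members of subfamily A were low. Abca3, which loads surfactant lipids into the lamellar bodies of lung cells, stood at 3.28, 4.57 and 4.38 RPKM in the heart, kidney and liver library. The kidney and liver intervals of Abca3 overlapped. Abca14, known from the mouse testis, stood at 0.530, 2.07 and 1.05 RPKM (41, 172 and 94 reads). Abca2, known from myelin and the brain, stood at 0.190, 0.851 and 0.321 RPKM, and Abca7, linked to phagocytosis, at 0.085, 0.275 and 0.319 RPKM. Abca13 stood at 0.139, 0.258 and 0 RPKM and Abca17 at 0.027, 0.510 and 0.069 RPKM. Abca4, the transporter of retinal photoreceptors, Abca12, the lipid transporter of the skin, Abca15 and Abca16 had 0 reads in all 3 libraries.

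Among the drug and conjugate pumps, Abcb1b and Abcc3 had the largest differences on the log2(RPKM + 1) scale. Abcb1b and Abcb1a are the mouse P-glycoproteins, counterparts of the single human ABCB1, which export hydrophobic drugs. Abcb1b lies on chromosome 5 from 8798147 to 8866314. It stood at 14.9 RPKM in the heart (14.0 to 15.9), 7.74 in the kidney (7.08 to 8.43) and 0.498 in the liver library (0.349 to 0.690). The heart level was 29.98 times the liver level (21.5 to 43.1) and 1.93 times the kidney level (1.73 to 2.15). The kidney level was 15.5 times the liver level (11.1 to 22.4). Abcb1a stood at 0.839, 0.442 and 0.012 RPKM (60, 34 and 1 reads). Taken as a pair because their reads may be shared, they summed to 15.8, 8.18 and 0.510 RPKM. Abcb1b made up 94.7%, 94.6% and 97.6% of that sum. Their neighbour Abcb4, which moves phosphatidylcholine into bile, stood at 0.154, 0.127 and 0.472 RPKM (9, 8 and 32 reads).

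Abcc3, also called MRP3, exports glucuronide and bile acid conjugates and lies on chromosome 11 from 94343295 to 94392976, away from the Abca9 row. It stood at 14.7 RPKM in the heart (13.8 to 15.6), 24.1 in the kidney (23.0 to 25.2) and 81.7 in the liver library (79.8 to 83.7). Abcc3 in the heart was 5.56-fold below its liver level (5.21 to 5.93), and in the kidney 3.39-fold below it (3.22 to 3.57). Hepatocytes carry this pump too. The hepatocyte markers were high in the same library, and their part in the Abcc3 level was not tested. Of the 6 members listed as bile canalicular and other hepatocyte transporters, 5 had 0 reads in every library. These were Abcb11, the bile salt export pump, Abcc2, the conjugate pump of the bile canaliculus, Abcc6, and Abcg5 and Abcg8, the sterol exporter pair. The other, Abcb4, had 9, 8 and 32 reads in the heart, kidney and liver library and so was highest in the liver. For Abcb11 the 95% Poisson interval of 0 reads ran up to 0.0453 RPKM in the liver library.

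The other pumps differed less. Abcc1, or MRP1, which exports leukotrienes and glutathione conjugates, stood at 19.8 RPKM in the heart, 6.42 in the kidney and 16.1 in the liver library. Its heart level was 3.08 times the kidney level (2.81 to 3.39) and 1.23 times the liver level (1.15 to 1.32). Its kidney level was 2.51-fold below the liver level (2.28 to 2.77). Abcc5, or MRP5, an exporter of cyclic nucleotides, stood at 5.03, 10.1 and 8.25 RPKM. Its short transcript of 1167 bp stood at 16.8, 23.0 and 23.9 RPKM, with kidney and liver near even. Abcc4, or MRP4, an exporter of prostaglandins and cyclic AMP, stood at 1.54, 0.982 and 1.32 RPKM. Abcg2, the breast cancer resistance protein, which exports urate, porphyrins and drugs, was nearly even at 15.1, 14.95 and 11.96 RPKM. The ratio of heart to kidney was 1.01 for Abcg2 (0.898 to 1.14). Abcc10 had 0, 0 and 16 reads in the heart, kidney and liver library, and Abcc12 had 0 reads in each.

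The mitochondrial transporters had different orders of levels. Abcb10, a partner of heme synthesis in red cell precursors, stood at 1.499, 1.39 and 0.390 RPKM (93, 93 and 28 reads) in the heart, kidney and liver library, with heart and kidney intervals that overlap. Abcb8, a transporter of the inner mitochondrial membrane, had another order. It stood at 0.379 RPKM in the heart (0.216 to 0.615, 16 reads), 10.1 in the kidney (9.16 to 11.02) and 2.80 in the liver library (2.35 to 3.31). Abcb8 in the heart was 26.6-fold below its kidney level (16.2 to 46.9) and 7.40-fold below its liver level (4.39 to 13.3). In the kidney it was 3.59 times the liver level (2.96 to 4.38). Abcb6, a porphyrin transporter, stood at 0.687, 5.05 and 1.38 RPKM, uncertain for the overlap given above. Renal tubule markers were high in the kidney library, and their part in the Abcb8 and Abcb6 levels was not tested. Abcb9, a lysosomal peptide transporter, had 1 read in the heart library and 0 in both others.

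In subfamily D, Abcd2, a peroxisomal transporter of very long chain and polyunsaturated fatty acids, stood at 10.7, 10.9 and 19.1 RPKM in the heart, kidney and liver library. Its ratio of heart to kidney was 0.976 (0.888 to 1.07). Abcd3, the peroxisomal transporter PMP70, stood at 5.39, 7.70 and 3.31 RPKM. Abcd4, which exports cobalamin (vitamin B12) from the lysosome, stood at 0.248 RPKM in the heart (0.114 to 0.471, 9 reads), 5.24 in the kidney (4.54 to 6.00) and 6.91 in the liver library (6.14 to 7.75). Abcd4 in the heart was 21.1-fold below its kidney level (10.9 to 46.8) and 27.8-fold below its liver level (14.5 to 61.5). Renal tubule markers were high in the kidney library and hepatocyte markers in the liver library. Their part in the Abcd4 levels was not tested. Lmbrd1, which encodes the lysosomal partner of Abcd4, was even at 49.8, 42.9 and 42.4 RPKM.

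The soluble ribosomal ATPases were expressed in every library. Abce1, which splits ribosomes after termination, was highest in the heart at 44.2 RPKM (42.5 to 46.0), against 20.3 in the kidney (19.2 to 21.5) and 27.5 in the liver library (26.2 to 28.8). Abcf3, a relative of yeast Gcn20, was instead lowest in the heart at 13.1 RPKM, against 25.0 in the kidney and 44.0 in the liver library. The Abcf3 heart level was 3.36-fold below the liver level (3.08 to 3.68). Abcf2 stood at 14.7, 19.0 and 28.8 RPKM in the same order, and Abcf1, which takes part in translation initiation, at 13.9, 15.6 and 17.3 RPKM.

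Abcg3 held the largest member difference between heart and liver on the log2(RPKM + 1) scale. It is a rodent gene close to Abcg2 whose protein departs from conserved residues of the ATP site, and the search above found neither motif in it. Abcg3 lies on chromosome 5 from 104935057 to 104982717, on the minus strand. It stood at 11.4 RPKM in the heart (10.4 to 12.4), 27.9 in the kidney (26.4 to 29.5) and 138 in the liver library (135 to 141). The heart and kidney levels were 12.1-fold (11.1 to 13.3) and 4.95-fold (4.66 to 5.25) below the liver level, with intervals apart in all 3 libraries. In the liver library it had 2.31 reads per bp of exon, the single member above 2 reads per bp in any library. Abca9 had 1.92 reads per bp in the heart and Abcc3 had 1.37 in the liver library. The authors' limit of 3 tags at a position can hold down densely read genes, also below 2 reads per bp. Its part in the levels of Abcg3, Abca9 and Abcc3 was not tested. Markers of T and NK cells, B and plasma cells and endothelium were also high in the liver library, and their part in the Abcg3 level was not tested. Abcg4, the remaining member of subfamily G, and Abcb5 had 0 reads in every library.

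The sulfonylurea receptors, which regulate ATP-sensitive potassium channels, were below the filter. Abcc8 had 0 reads in every library. Abcc9, known from heart muscle and mural cells, had 54, 0 and 88 reads (0.498, 0 and 0.701 RPKM) in the heart, kidney and liver library. Against the floor of reads used for Abca8a, the heart level of Abcc9 was 19.4-fold above the kidney level. On the same floor the kidney level was 27.2-fold below that of the liver. The counting error of the heart and liver reads is left out of these values. The 10 fibroblast and mural cell markers summed to 138, 5.07 and 16.7 RPKM in the same order, mostly Dcn in the heart. Of the 6 that passed the filter, 5 were higher in heart than liver. The other 1, Rgs5, stood at 0.051, 0 and 3.84 RPKM. The part of these cells in the Abcc9 level was not tested.

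To set the members against all genes, differences were taken on log2(RPKM + 1), which understates the change of low genes, and 2 log2 units, 4-fold on that scale, counted as higher or lower. For heart minus kidney, 3 of the 23 members were lower in the heart, Abcb8 and Abcd4 among them, and 0 were higher. Of all genes tested, 7.50% passed this mark, with 5.10% lower and 2.40% higher in the heart. For heart minus liver, Abcb1b was higher in the heart, and Abcc3, Abcd4 and Abcg3 were lower, 4 of 23 members against 12.5% of all genes (5.33% higher and 7.13% lower in the heart). The split of all genes was 612 higher against 819 lower, but 758 against 676 after median ratio scaling. For kidney minus liver, 2 were higher in the kidney, Abcb1b among them, and Abcg3 was lower, 3 of 23 members against 12.7% of all genes (7.57% higher and 5.10% lower in the kidney). The members' counts are too small to be read as more or less than these shares.

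The medians are given beside those of all genes. For heart minus kidney the 23 members had a median of -0.35 log2 units, against -0.23 for all genes tested. For heart minus liver the medians were -0.33 and -0.16, and for kidney minus liver 0.27 and 0.04. Median ratio scaling moved the medians of all genes to -0.06, 0.00 and 0.06 and those of the members to -0.16, -0.14 and 0.30. No member past the 4-fold mark changed direction under any alternative run, but these runs could not reverse differences of that size. Each such member had 1 NM_ transcript, so the choice of transcript could not change it. At a mark of 1 log2 unit, 2-fold, 8 members passed for heart minus kidney (2 higher and 6 lower in the heart), where 33.5% of all genes did (10.5% higher and 22.9% lower). For heart minus liver 9 members passed (4 higher and 5 lower in the heart), where 42.9% of all genes did (17.9% higher and 24.9% lower). For kidney minus liver 8 members passed (5 higher and 3 lower in the kidney), where 41.9% of all genes did (24.2% higher and 17.7% lower). The 3 comparisons share libraries, so they are not independent of each other.

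**Figure D3:**
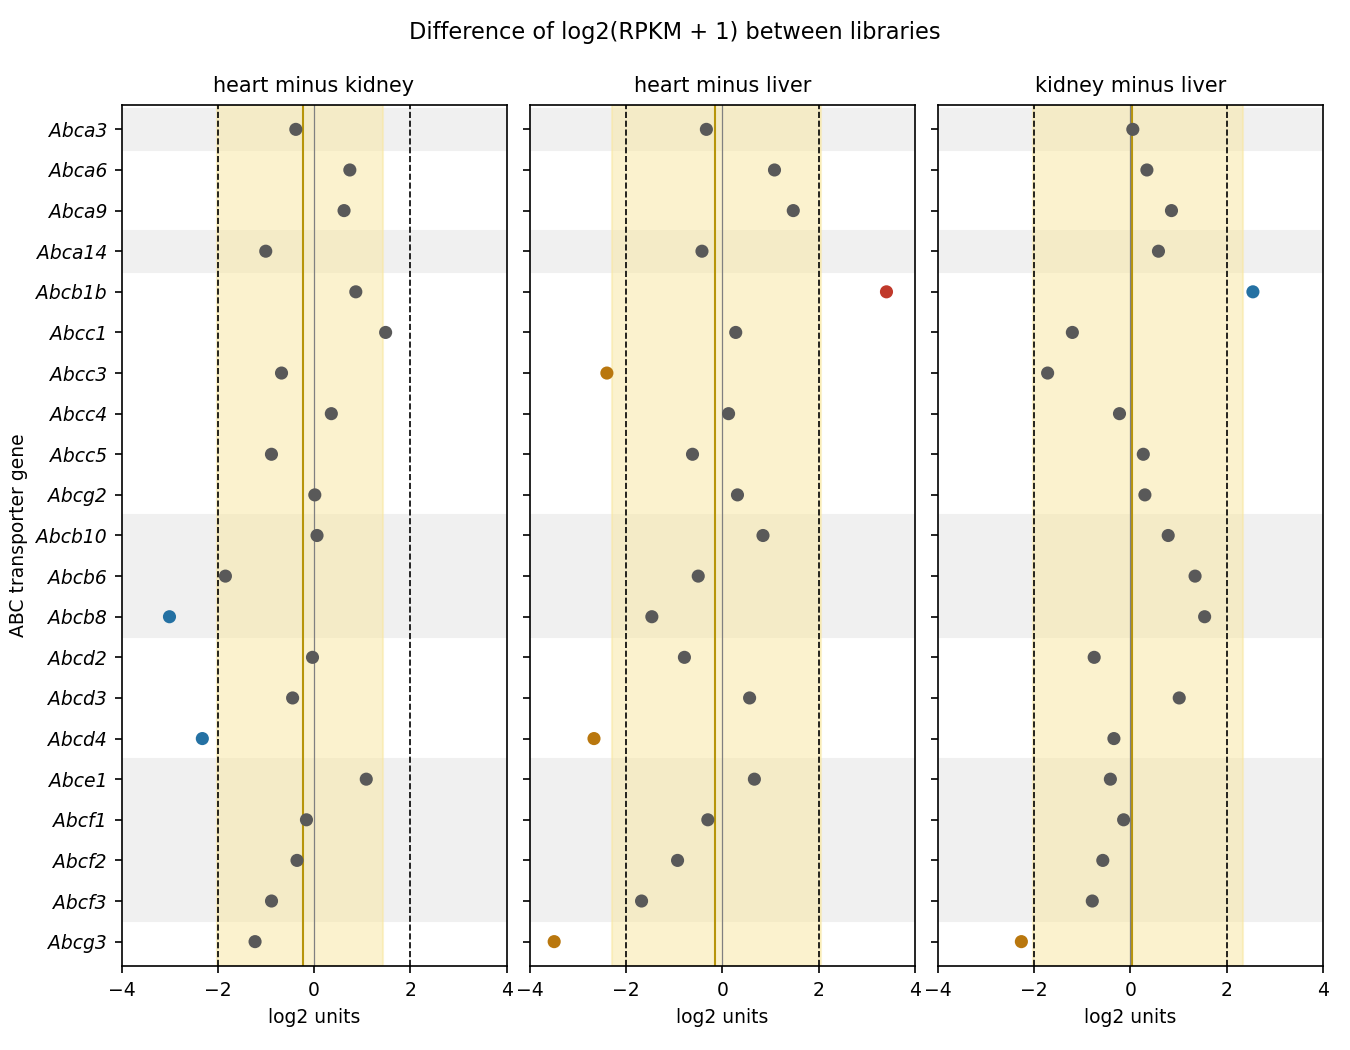
Difference of log2(RPKM + 1) for 21 of the 23 ABC transporter genes in the 3 comparisons, with dashed lines at 2 log2 units, the central 90% of all genes tested as a yellow band and their median as a dark yellow line. Points past the dashed lines take the colour of the library in which the gene was higher (red heart, blue kidney, orange liver): Abcb8 and Abcd4 for heart minus kidney, Abcb1b, Abcc3, Abcd4 and Abcg3 for heart minus liver, and Abcb1b and Abcg3 for kidney minus liver.

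ABC proteins with older names, which the symbol rule leaves out, were measured too. Tap1 and Tap2 form the peptide transporter that loads MHC class I. Tap1 was at 4.14, 15.7 and 7.85 RPKM in the heart, kidney and liver library. Tap2 was at 0.642, 3.61 and 0.072 RPKM (23, 139 and 3 reads) and passed the 4-fold mark for kidney minus liver. Its liver value lies near the limit of the depth. Cftr, the chloride channel, had 0 reads.

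Genes that work beside the members were taken from lists and described by the same marks. Their counts past the 4-fold mark are to be read against the shares over all genes, which were 7.50% between heart and kidney, 12.5% between heart and liver and 12.7% between kidney and liver. Their medians for heart minus kidney, heart minus liver and kidney minus liver stand against -0.23, -0.16 and 0.04 log2 units for all genes. The medians were -0.38, -0.12 and 0.15 for iron-sulfur cluster and heme synthesis, -0.20, -0.15 and -0.26 for the peroxisome, 0.04, -0.39 and -0.79 for cobalamin handling and 0.22, -0.02 and -0.04 for ribosome recycling. Of 19 genes of iron-sulfur cluster and heme synthesis, the setting of Abcb10, 18 passed the filter. Past the 4-fold mark, 0 lay between heart and kidney, 1 was higher in heart than liver, and 2 were higher in kidney than liver, of 18 genes each. Isca1, an iron-sulfur assembly protein that passed both of the last marks, stood at 10.98, 11.05 and 1.94 RPKM in the heart, kidney and liver library. Slc25a38, the mitochondrial glycine carrier, passed for kidney minus liver at 0.660, 4.66 and 0 RPKM. Of 28 peroxisome genes, the setting of Abcd2 and Abcd3, 24 passed. Pex13 was higher in heart than kidney, 0 passed between heart and liver, and 1 was higher and Ehhadh lower in kidney than liver. Ehhadh, a peroxisomal oxidation enzyme, stood at 2.304, 0.60 and 5.81 RPKM in the heart, kidney and liver library.

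Of the 10 genes of cobalamin handling, the setting of Abcd4, 8 passed. The mark was passed by 0 between heart and kidney and by 0 between kidney and liver, of 8 genes each, against 7.50% and 12.7% of all genes. There were 2 lower in heart than liver, where 7.13% of all genes were, Mmaa at 0.512, 2.38 and 7.78 RPKM and Mtrr at 0.984, 4.59 and 8.18 RPKM in the heart, kidney and liver library. Mmaa and Mtrr serve the enzymes that use cobalamin. Over the 8 genes, heart minus liver was above 0 for 4 and below 0 for 4. Of 12 genes of ribosome recycling found, the setting of Abce1, 10 passed. There the single gene past the mark was Hbs1l, a ribosome rescue factor, at 12.7, 15.9 and 0.883 RPKM, above the liver level in both other libraries. Gspt1, a termination factor, stood at 8.84, 3.73 and 10.3 RPKM.

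Glutathione genes, the setting of Abcc1, had the widest range of differences among these lists. Of 18, 17 passed the filter. For heart minus kidney 3 were higher (Txnrd1, Srxn1 and Ltc4s) and 1 lower (Ggt1) in the heart, against 2.40% and 5.10% of all genes. For heart minus liver 2 were higher (Srxn1 and Ltc4s) and 3 lower (Gsta4, Gstp1 and Mgst2) in the heart, against 5.33% and 7.13%. For kidney minus liver 2 were higher (Ltc4s and Ggt1) and 6 lower in the kidney, of 17 genes, against 7.57% and 5.10% of all genes. The list was chosen with earlier results known, so nothing is drawn from this count. Their medians were 0.76, -0.46 and -1.34 log2 units. Ltc4s, which makes the leukotriene that Abcc1 exports, stood at 34.7, 6.80 and 0.915 RPKM in the heart, kidney and liver library. Srxn1, which repairs oxidized peroxiredoxins, stood at 37.2, 2.70 and 2.06 RPKM. Ggt1 stood at 0, 8.70 and 0 RPKM in the same order. Renal tubule markers were high in the kidney library and hepatocyte markers in the liver library. Their part in the differences of the glutathione genes was not tested.

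**Figure D4:**
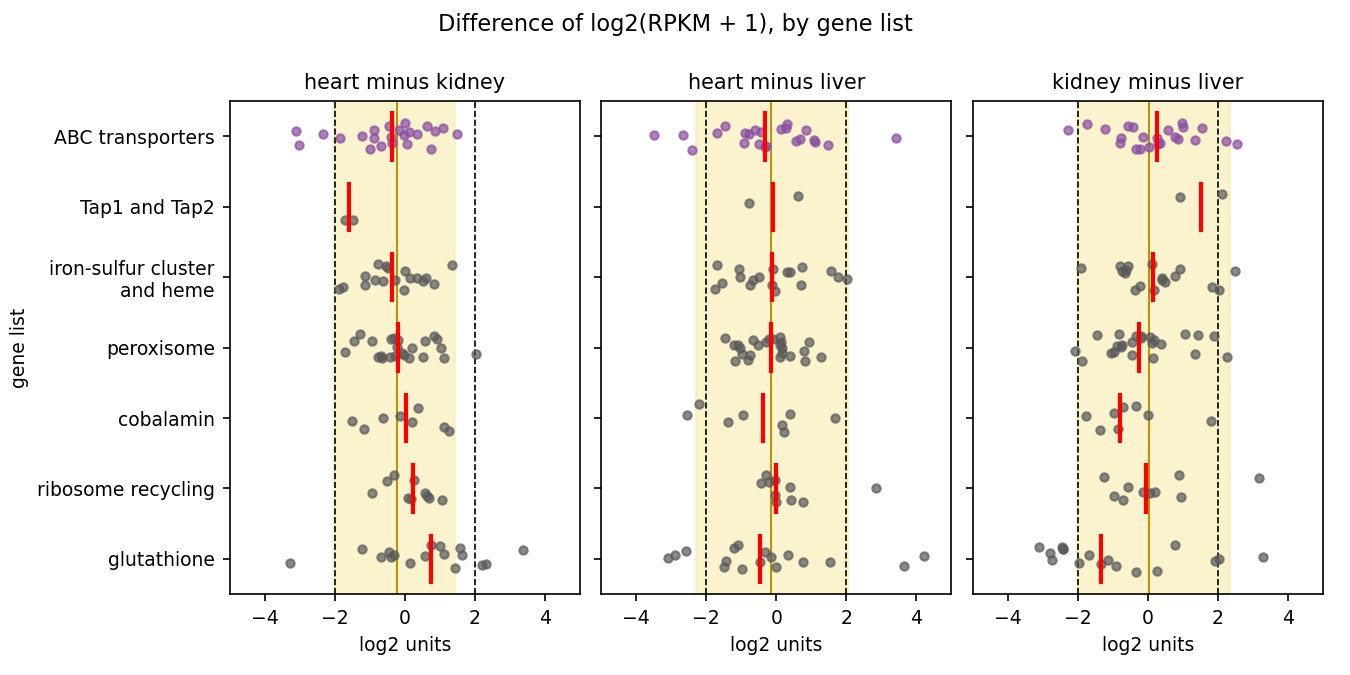
Difference of log2(RPKM + 1) for the members (purple) and for the genes of each list that passed the filter (grey), 1 point per gene with vertical scatter for legibility, list medians as red bars, dashed lines at 2 log2 units and the central 90% of all genes as a yellow band. The glutathione genes have the widest range of the pathway lists, with medians of 0.76, -0.46 and -1.34 log2 units.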

How the data were processed

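Per the labels' protocols, RNA from sorted cells was amplified with a SMARTer kit for low input and made into Illumina libraries. CASAVA, STAR and mm10 come from the submitters' processing notes, without versions. The authors deposited RPKM for 34711 RefSeq transcripts. Per the file headers these were made with HOMER's analyzeRepeats.pl, which counted exon reads of either strand, scaled each library to 1000000 and allowed 3 tags per position. Column names say FPKM. RPKM times exon length summed to 1000000 in each library, and all low values checked (under 500 reads) lay within 0.1 of a whole read, which gave the reads.

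The longest NM_ transcript per symbol was kept, or the longest other transcript where a gene had none. Members and lists were chosen with earlier results of these data known. By rule, every member at 1 RPKM or more was to be named, with the 2 members of each list that differed most. Further genes (Lmbrd1, Pex13, Pdgfra, Rgs5 and glutathione genes beyond Ltc4s and Srxn1) were named after their values were seen. Python 3.11.15, numpy 2.4.6, pandas 2.3.3, scipy 1.17.1 and matplotlib 3.10.9 were used. Coding sequences and shared 50-base stretches came from GENCODE M21, where all 48 members matched by RefSeq accession. Depth recovery and calls were tested on simulated data. Alternatives were other pseudocounts, filters, scalings, transcripts and marks. A few genes under this rule entered the counts but are not reported here by name.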

Additional observations from a re-analysis of the deposited data

How the results depend on the processing

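Results were recomputed under 10 alternatives where each applied. The counts of members past 4-fold were 3, 4 and 3 for heart minus kidney, heart minus liver and kidney minus liver. They were 1, 2 and 1 with a pseudocount of 5, and 8, 9 and 8 at a 2-fold mark. With TPM scaling the first 2 were 5 and 7; TPM values are larger than RPKM here, so a pseudocount of 1 is smaller beside them. The counts of all genes past 4-fold were 861, 1431 and 1455. They were 2350, 3268 and 3178 with a pseudocount of 0.1, 213, 465 and 391 with a pseudocount of 5, 1978, 2797 and 2918 with TPM scaling, and 3846, 4922 and 4814 at 2-fold. For heart minus liver the split of higher against lower genes was 612 against 819, but 758 against 676 with median ratio scaling and 1531 against 1266 with TPM. For heart minus kidney it was 275 against 586, and 108 against 105 with a pseudocount of 5. The other counts stayed within 1.5 times. The causes of these shifts were not tested. No called member difference changed sign, which the alternatives could not have brought about in differences of that size. Of the uncalled differences, Abcc5 for kidney minus liver had a long-transcript interval apart from 0 and changed sign with its short transcript. It then stood at -0.05, near even, with 417 reads in the kidney and 467 in the liver library. The counting error of that value was not taken. With the transcript of highest mean, the member median for kidney minus liver was 0.05, against 0.27. No paired analysis was possible because each group has 1 library. Leaving out a replicate was not possible for the same reason. The depth limits members under about 0.1 RPKM.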
